A study of Sus scrofa with 10 samples.

Results

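The amino acid transporter families of pig liver (Sus scrofa) were followed across liver failure after hepatectomy and its treatment with a bioartificial liver, an external device in which liver cells act on the circulating blood. Members were the genes of the solute carrier families SLC1, SLC3, SLC6, SLC7, SLC36, SLC38 and SLC43, taken by symbol. There were 56 such genes among the 31905 genes of the deposited table, of which 16497 carried a symbol. The 10 libraries were all of WT liver, with no age, sex or breed in the labels used here. Control was 3 libraries of normal liver on day 0. No-BAL, written NoBAL here, was 2 libraries of failing liver with no device on day 2. Empty-BAL, written EmptyBAL, was 2 libraries of failing liver on day 3 with a device that held no cells. In the hiHep-BAL group the device held human induced hepatocytes, which are human cells of another type converted to hepatocyte-like cells. That group gave 1 library on day 4 (hiHepD4) and 2 libraries on day 8 (hiHepD8). Every group was sampled on a day of its own, so treatment and day cannot be told apart. The labels do not say that libraries of a group came from separate animals, so a p-value measures only the spread between these libraries, which may be technical.

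Cells take up amino acids through membrane carriers that each accept a limited set. Sodium-coupled carriers of SLC38, SLC1 and SLC6 concentrate neutral and acidic amino acids, osmolytes and transmitters, while most SLC7 carriers exchange amino acids or take up cationic ones. Several SLC7 light chains reach the membrane only as a heterodimer with a heavy chain of the SLC3 family. Liver takes up glutamine, alanine and other gluconeogenic amino acids from portal blood, feeds their nitrogen into the urea cycle and releases some of them again.

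Levels are in FPKM, the fragments of a gene per kilobase, scaled to the fragments of the library, which allow genes to be compared per length. Differences are on the log2(FPKM + 1) scale, where the change of a gene near 0 FPKM comes out too small, and are given with limma's standard error (SE). A gene was called where its p, adjusted by Benjamini-Hochberg over all 12180 genes tested, was under 0.05. Of the 56 members, 30 reached 1 FPKM in at least 2 libraries and were tested, 21 did not, and 5 were listed at 0 in every library. Since a member could pass this filter through a single group, counts over the 30 are a description.

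The libraries differed in how alike the replicates were. The correlation of log2(FPKM + 1) was 0.992 to 0.994 within Control and 0.992 within hiHepD8, but 0.956 within NoBAL and 0.893 within EmptyBAL. EmptyBAL replicate 1 had the lower level of most of the 8 hepatocyte markers, with 3.15 FPKM of the hepatocyte regulator HNF4A against 46.5 in replicate 2. When Control and hiHepD8 were each averaged to a single library, so that the spread came from NoBAL and EmptyBAL, 92 of the 100 member calls were lost. The 8 that remained were those of SLC3A1 in 4 comparisons (highest adjusted p 0.039), of SLC43A1 in 3 (highest 0.047) and of SLC38A4 in EmptyBAL against Control (0.047).

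Together the members summed to 1023 to 1033 FPKM in the Control libraries. The sums were 649 and 597 FPKM in NoBAL, 411 and 441 in EmptyBAL, then 825 in hiHepD4 and 959.9 and 964 in hiHepD8. SLC38A3 alone held between 13.8 and 391.9 FPKM of these sums, and SLC38A4, SLC3A2 and SLC7A2 were the next most abundant members by their highest library. As a share of the summed FPKM of a library, the members made up 0.124% in each Control library, 0.0821% and 0.113% in the NoBAL libraries, 0.0828% and 0.1% in the EmptyBAL libraries, 0.101% on day 4, and 0.17% and 0.176% on day 8. The shares in hiHepD8 were thus above Control while the sums were below it, because the summed FPKM of all genes ranged from 439925 to 829970 between libraries.

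In NoBAL against Control, 16 of the 30 tested members were called (53.3%), where 49.4% of all tested genes were. Of these, 7 were higher and 9 lower, against a background of 25.2% of all genes higher and 24.2% lower. In EmptyBAL against Control, 21 were called (70.0%, background 53.7%), 9 higher and 12 lower (background 24.4% and 29.3%). Without EmptyBAL replicate 1 the count was 19. In hiHepD8 against Control, 11 were called (36.7%, background 32.2%), 4 higher and 7 lower (background 15.1% and 17.1%). That count fell to 4 without either hiHepD8 library, to 6 or 7 without a Control library, and was 16 without either EmptyBAL library. The median change of the members was 0.17 in NoBAL, -0.31 in EmptyBAL and -0.01 in hiHepD8, beside 0.04, -0.03 and -0.02 over all genes. The counts lie near the background in NoBAL and hiHepD8.

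Between the failing and the treated groups, EmptyBAL against NoBAL gave 15 called members (background 34.0%), 3 higher and 12 lower (background 12.6% and 21.4%). hiHepD8 against NoBAL gave 18 (background 47.3%), 8 higher and 10 lower (background 22.5% and 24.8%). hiHepD8 against EmptyBAL gave 19 (63.3%, background 40.2%), 10 higher and 9 lower (background 22.6% and 17.6%). Without EmptyBAL replicate 1 there were 13 in EmptyBAL against NoBAL and 19 in hiHepD8 against EmptyBAL. Rescaling every library to the same sum (TPM) changed the balance of the calls, to 10 higher and 6 lower in NoBAL against Control, 12 and 9 in EmptyBAL against Control, and 8 and 4 in hiHepD8 against Control. In EmptyBAL against NoBAL the TPM balance was 6 higher and 3 lower, and the upper-quartile balance 4 and 8. In hiHepD8 against EmptyBAL the TPM balance was 8 and 11. No called member changed direction under any setting.

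**Figure D1:**
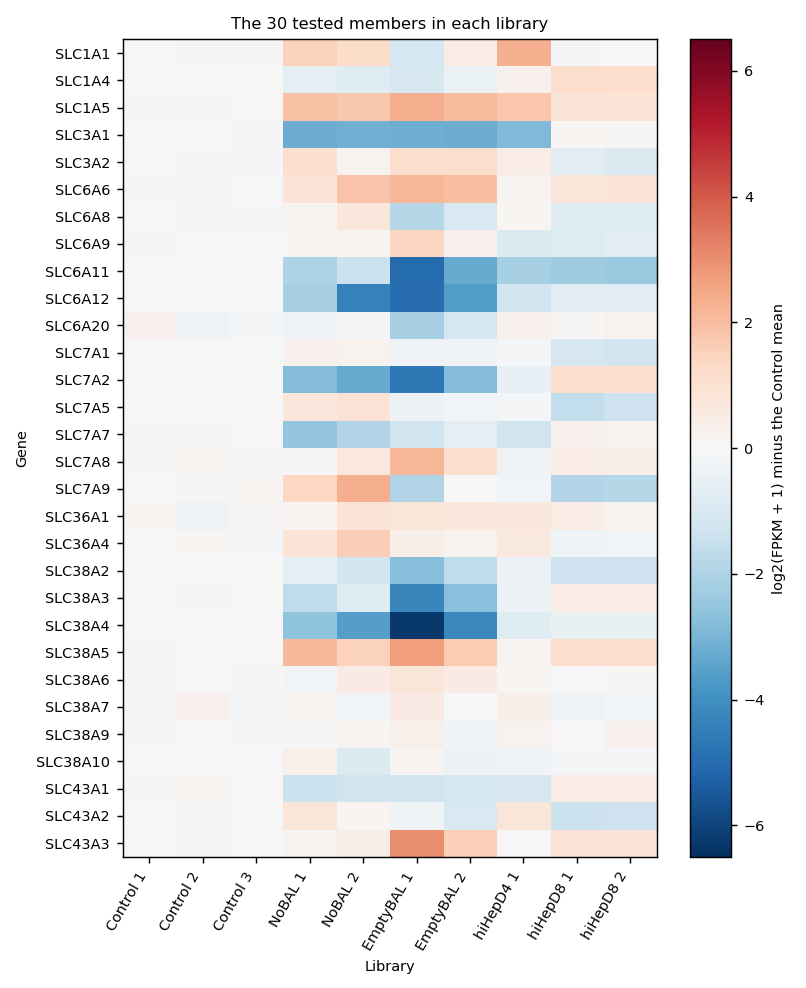
Heat map of log2(FPKM + 1) minus the Control mean for the 30 tested members (vertical axis, by family) in the 10 libraries (horizontal axis), red above and blue below Control. SLC6A11, SLC6A12, SLC7A2, SLC38A3 and SLC38A4 are darkest blue in EmptyBAL 1, SLC3A1 is blue in NoBAL, EmptyBAL and hiHepD4 alike, and SLC1A5 is red in all libraries other than Control.

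The sodium-coupled glutamine and neutral amino acid carriers of SLC38 included the most abundant members, and SLC38A3, SLC38A4 and SLC38A2 were lowest in EmptyBAL. SLC38A3, a system N carrier that moves glutamine, histidine and asparagine and is typical of hepatocytes, stood at 284, 264 and 279 FPKM in Control. It stood at 86.1 and 154 FPKM in NoBAL, 13.8 and 41.0 in EmptyBAL, then 212 in hiHepD4 and 383.7 and 391.9 in hiHepD8. Both failing groups lay below Control without overlap, and both day 8 libraries above it. The change was -1.25 (SE 0.43, adjusted p 0.043) in NoBAL and -3.47 (SE 0.43, adjusted p 0.00044) in EmptyBAL against Control. It was 1.74 (SE 0.47, adjusted p 0.018) in hiHepD8 against NoBAL and 3.96 (SE 0.47, adjusted p 0.00071) against EmptyBAL. Against Control, hiHepD8 differed by 0.49 (SE 0.43), with an adjusted p of 0.42. EmptyBAL also lay below NoBAL, by -2.22 (SE 0.47, adjusted p 0.012).

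SLC38A4, a system A carrier of small neutral amino acids such as alanine that is found mainly in liver, had 148, 143 and 149 FPKM in Control. Its levels were 22.7 and 11.4 FPKM in NoBAL, 0.886 and 7.23 in EmptyBAL, then 83.4 in hiHepD4 and 105 and 104 in hiHepD8. No other group reached the Control range, and hiHepD8 came closest to it. The change against Control was -3.11 (SE 0.56, adjusted p 0.0027) in NoBAL and -5.23 (SE 0.56, adjusted p 0.00021) in EmptyBAL. The latter was the largest fall among the tested members in that comparison on the log2(FPKM + 1) scale, where falls to near 0 FPKM come out too small. hiHepD8 was higher than NoBAL by 2.63 (SE 0.61, adjusted p 0.0096) and higher than EmptyBAL by 4.75 (SE 0.61, adjusted p 0.00099). Its difference from Control was -0.48 (SE 0.56, adjusted p 0.55).

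SLC38A2, the widely expressed system A carrier, was not back at the Control level on day 8. It measured 93.3, 97.6 and 94.1 FPKM in Control, then 60.8 and 41.3 in NoBAL, 12.9 and 30.01 in EmptyBAL, then 71.6 in hiHepD4 and 36.3 and 37.1 in hiHepD8. The day 8 libraries lay below Control and NoBAL and above EmptyBAL. Relative to Control the change was -2.21 (SE 0.33, adjusted p 0.001) in EmptyBAL and -1.35 (SE 0.33, adjusted p 0.017) in hiHepD8, and -0.91 (SE 0.33) in NoBAL, where the adjusted p was 0.051. hiHepD8 differed from EmptyBAL by 0.86 (SE 0.36, adjusted p 0.093). EmptyBAL lay below NoBAL by -1.30 (SE 0.36, adjusted p 0.029).

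SLC38A5, another system N carrier, moved the opposite way to SLC38A3 in failing liver. It was at 0.417, 0.300 and 0.305 FPKM in Control, then 4.82 and 2.80 in NoBAL, 7.90 and 3.20 in EmptyBAL, then 0.497 in hiHepD4 and 1.84 and 1.88 in hiHepD8. Every library other than Control was above the Control range. Set against Control, the change was 1.81 (SE 0.31, adjusted p 0.0022) in NoBAL, 2.19 (SE 0.31, adjusted p 0.00082) in EmptyBAL and 1.09 (SE 0.31, adjusted p 0.031) in hiHepD8. hiHepD8 lay below EmptyBAL by -1.10 (SE 0.34, adjusted p 0.035).

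Some of these calls were lost when a single library was left out, in part with hardly any move of the change itself. The change of SLC38A3 in NoBAL against Control was -1.25 with all libraries and also without either hiHepD8 library. That of SLC38A2 in hiHepD8 against Control stayed between -1.36 and -1.33. A lost call is thus not by itself a sign that the change rested on the library left out. For SLC38A3, NoBAL against Control was lost without any Control library, either hiHepD8 library or NoBAL replicate 1 (adjusted p up to 0.23), and hiHepD8 against NoBAL without either hiHepD8 library or NoBAL replicate 1 (up to 0.096). EmptyBAL against NoBAL was lost for SLC38A3 without NoBAL replicate 2 (0.057) and ranged from -2.97 to -1.47 as libraries were left out. For SLC38A4, hiHepD8 against NoBAL was lost without hiHepD8 replicate 1 or NoBAL replicate 2 (up to 0.061). EmptyBAL against NoBAL for SLC38A4 was -2.12 (SE 0.61, adjusted p 0.032), was lost in 8 of the 9 leave-one-out fits (all but that without EmptyBAL replicate 2), and ranged from -3.18 to -1.06. For SLC38A2, hiHepD8 against Control was lost without any Control or hiHepD8 library (up to 0.1), and EmptyBAL against NoBAL without any of those or NoBAL replicate 1 (up to 0.11), with a range of -1.88 to -0.72. For SLC38A5, hiHepD8 against Control was lost without any Control or hiHepD8 library (up to 0.15), and hiHepD8 against EmptyBAL without any of those or EmptyBAL replicate 1 (up to 0.13), with a range of -1.64 to -0.56. On the TPM scale the calls of SLC38A3 in NoBAL against Control (-0.90, adjusted p 0.19) and in EmptyBAL against NoBAL (0.055) were also lost, as were those of SLC38A2 in hiHepD8 against Control (-0.79, 0.1) and in EmptyBAL against NoBAL (-0.86, 0.13) and that of SLC38A4 in EmptyBAL against NoBAL (0.076). The last 2 were lost on upper-quartile scaling too (adjusted p 0.068 and 0.055).

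**Figure D2:**
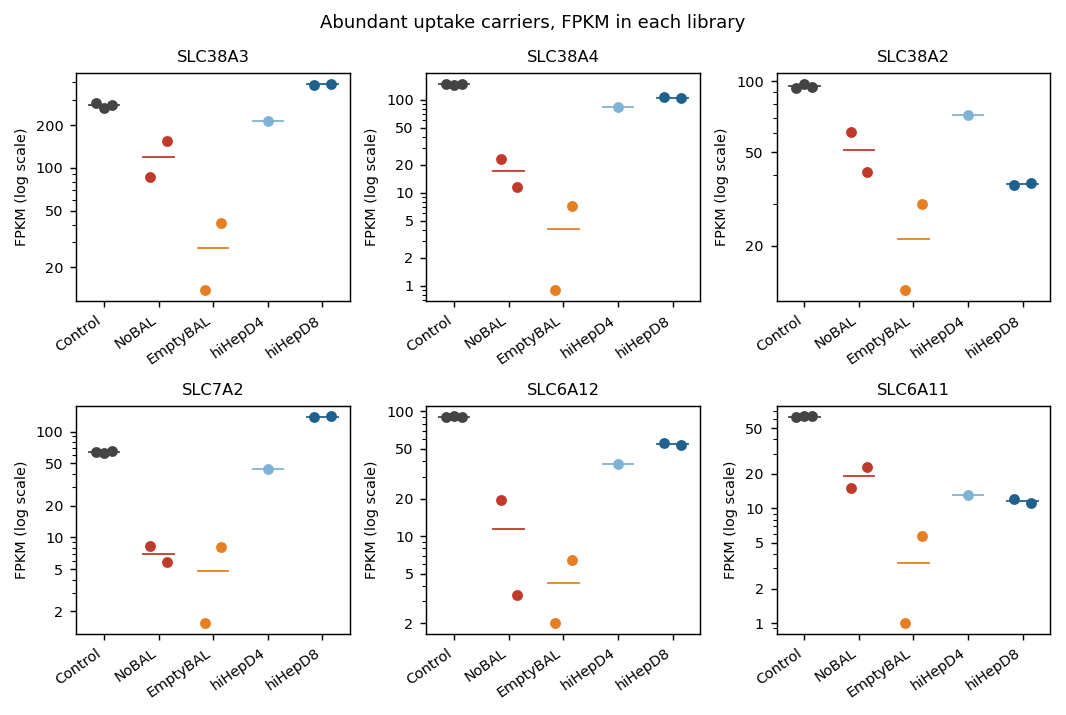
FPKM on a log axis in each library (points) and the group mean (lines) for 6 abundant uptake carriers across the 5 groups. SLC38A3 and SLC7A2 end above Control in hiHepD8 (383.7 and 391.9, and 137 and 139 FPKM), SLC38A4 and SLC6A12 end between the failing groups and Control, and SLC38A2 and SLC6A11 stay low (36.3 and 37.1, and 12.1 and 11.08 FPKM).

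Among the carriers of cationic amino acids, SLC7A2 and SLC7A1 changed in opposite directions in the day 8 libraries. SLC7A2, the cationic amino acid transporter that takes up arginine, lysine and ornithine in hepatocytes, had 63.4, 63.0 and 64.9 FPKM in Control. It had 8.27 and 5.80 FPKM in NoBAL, 1.55 and 8.18 in EmptyBAL, then 43.9 in hiHepD4 and 137 and 139 in hiHepD8. Failing livers lay far below Control, and the day 8 libraries were above every other library. The log2 change from Control was -3.03 (SE 0.46, adjusted p 0.0013) in NoBAL and -3.74 (SE 0.46, adjusted p 0.00042) in EmptyBAL. hiHepD8 was higher than NoBAL by 4.13 (SE 0.51, adjusted p 0.00056) and than EmptyBAL by 4.85 (SE 0.51, adjusted p 0.00042). Each was the largest rise among the tested members on the log2(FPKM + 1) scale, where rises from near 0 FPKM come out too small. All these calls held in each of the 9 leave-one-out fits. Against Control the difference of hiHepD8 was 1.10 (SE 0.46), and its adjusted p was 0.11.

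SLC7A1, the widely expressed cationic amino acid transporter, was low throughout. It ranged from 2.553 to 2.67 FPKM in Control, was 3.44 and 3.26 in NoBAL, 2.13 and 2.05 in EmptyBAL and 2.39 in hiHepD4, and fell to 0.719 and 0.525 in hiHepD8. The change in hiHepD8 was -1.16 (SE 0.12, adjusted p 0.00036) against Control, -1.43 (SE 0.13, adjusted p 0.00016) against NoBAL and -0.93 (SE 0.13, adjusted p 0.0014) against EmptyBAL.

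The heavy chain SLC3A1 was close to 0 in failing liver and again near the Control level on day 8. This protein, also called rBAT, forms the cystine and dibasic amino acid exchanger of kidney and intestine together with the light chain SLC7A9. SLC3A1 stood at 9.85, 9.73 and 9.15 FPKM in Control, then 0.144 and 0.208 in NoBAL, 0.176 and 0.135 in EmptyBAL, then 0.423 in hiHepD4 and 10.5 and 10.02 in hiHepD8. The libraries of days 2 to 4 were all under 1 FPKM, and those of day 8 were just above Control. The change against Control was -3.17 (SE 0.12, adjusted p 3.2e-06) in NoBAL and -3.19 (SE 0.12, adjusted p 2.8e-06) in EmptyBAL. hiHepD8 was higher by 3.26 (SE 0.13, adjusted p 1.1e-05) than NoBAL and by 3.29 (SE 0.13, adjusted p 2.4e-05) than EmptyBAL, and differed from Control by 0.09 (SE 0.12, adjusted p 0.6).

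SLC7A9 did not follow its heavy chain. It measured 4.07, 3.88 and 4.68 FPKM in Control, then 12.4 and 25.4 in NoBAL, 0.328 and 4.06 in EmptyBAL, then 3.62 in hiHepD4 and 0.399 and 0.426 in hiHepD8. NoBAL lay above every other group, the day 8 libraries lay below all but EmptyBAL replicate 1, and the EmptyBAL libraries differed widely. The change was 1.86 (SE 0.52, adjusted p 0.02) in NoBAL and -1.88 (SE 0.52, adjusted p 0.028) in hiHepD8 against Control. hiHepD8 lay below NoBAL by -3.74 (SE 0.57, adjusted p 0.0015), and EmptyBAL below NoBAL by -2.86 (SE 0.57, adjusted p 0.01). As a description, the level of SLC7A9 divided by that of SLC3A1 was 0.399 to 0.511 in Control, then 86.2 and 122 in NoBAL, 1.87 and 30.1 in EmptyBAL, then 8.55 in hiHepD4 and 0.038 and 0.0425 in hiHepD8. Against Control, the SLC7A9 call in NoBAL was lost without NoBAL replicate 2 or Control replicate 1 or 2 (adjusted p up to 0.14), and that in hiHepD8 without any Control or hiHepD8 library (up to 0.13) and on the TPM scale (0.076). EmptyBAL against NoBAL was lost without NoBAL replicate 2 (0.052) and ranged from -3.82 to -1.89.

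SLC3A2, the heavy chain also known as CD98, carries the light chains SLC7A5, SLC7A7, SLC7A8, SLC7A10 and SLC7A11 to the membrane. It was at 64.1, 66.8 and 60.6 FPKM in Control, then 132 and 74.1 in NoBAL, 136 and 143 in EmptyBAL, then 88.2 in hiHepD4 and 38.3 and 33.3 in hiHepD8. All failing and day 4 libraries were above Control and both day 8 libraries below it. Relative to Control the change was 1.11 (SE 0.25, adjusted p 0.0069) in EmptyBAL and -0.82 (SE 0.25, adjusted p 0.039) in hiHepD8, and 0.62 (SE 0.25, adjusted p 0.069) in NoBAL. hiHepD8 lay below NoBAL by -1.44 (SE 0.27, adjusted p 0.0039) and below EmptyBAL by -1.93 (SE 0.27, adjusted p 0.0014). The call of hiHepD8 against Control was lost without any Control or hiHepD8 library (adjusted p up to 0.23), on the TPM scale (-0.26, adjusted p 0.3) and on upper-quartile scaling (-0.61, 0.076).

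The light chains of SLC3A2 differed among themselves. SLC7A5 (LAT1), which exchanges large neutral amino acids such as leucine and is typical of growing cells, had 8.55, 8.95 and 8.79 FPKM in Control. It had 15.2 and 17.8 FPKM in NoBAL, 6.55 and 7.54 in EmptyBAL, then 8.15 in hiHepD4 and 2.20 and 2.87 in hiHepD8. NoBAL was the highest group and hiHepD8 the lowest. The change was 0.84 (SE 0.15, adjusted p 0.0028) in NoBAL against Control and -1.47 (SE 0.15, adjusted p 0.00037) in hiHepD8 against Control. hiHepD8 lay below NoBAL by -2.31 (SE 0.17, adjusted p 6.4e-05) and below EmptyBAL by -1.19 (SE 0.17, adjusted p 0.0014). These calls held in each of the 9 leave-one-out fits.

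SLC7A7, the light chain that exports cationic amino acids in exchange for neutral ones and sodium, ran the other way. It was at 19.9, 22.0 and 21.0 FPKM in Control, then 2.78 and 4.68 in NoBAL, 7.87 and 13.6 in EmptyBAL, then 7.90 in hiHepD4 and 25.8 and 25.0 in hiHepD8. NoBAL was lowest, EmptyBAL and hiHepD4 lay between, and hiHepD8 was above Control. Set against Control, the change was -2.25 (SE 0.25, adjusted p 0.0003) in NoBAL and -0.95 (SE 0.25, adjusted p 0.015) in EmptyBAL. hiHepD8 was higher than NoBAL by 2.51 (SE 0.28, adjusted p 0.00035) and than EmptyBAL by 1.21 (SE 0.28, adjusted p 0.011), and differed from Control by 0.27 (SE 0.25, adjusted p 0.46). The EmptyBAL call against Control was lost without EmptyBAL replicate 1 (adjusted p 0.062, range -1.31 to -0.59), on the TPM scale (-0.18, 0.69) and on upper-quartile scaling (-0.73, 0.053), and that of hiHepD8 against EmptyBAL without either hiHepD8 library (up to 0.066) and on the TPM scale (0.084).

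SLC7A8 (LAT2), a further neutral amino acid exchanger, stayed at or under 1.38 FPKM outside EmptyBAL, where it was 5.58 and 2.00. The change in EmptyBAL against Control was 1.61 (SE 0.34, adjusted p 0.0056), and 1.04 without EmptyBAL replicate 1, still called. SLC7A10 and SLC7A11, the cystine and glutamate exchanger subunit xCT, did not pass the filter on low values. The summed level of the 5 light chains divided by that of SLC3A2 was 0.451 to 0.501 in Control, then 0.141 and 0.325 in NoBAL, 0.148 and 0.162 in EmptyBAL, then 0.189 in hiHepD4 and 0.759 and 0.871 in hiHepD8. SLC3A2 thus exceeded the sum of its listed light chains in every library, least so in hiHepD8.

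**Figure D3:**
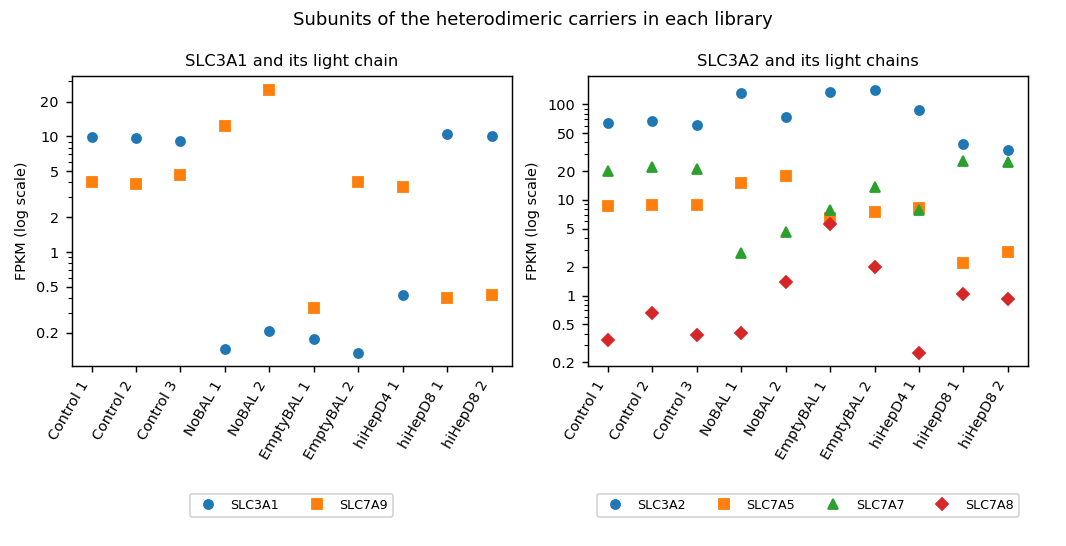
FPKM on a log axis in each of the 10 libraries for the heavy chain SLC3A1 with its light chain SLC7A9 (left) and for SLC3A2 with 3 light chains (right). SLC7A9 exceeds SLC3A1 in NoBAL, EmptyBAL and hiHepD4 and lies below it in Control and hiHepD8, and SLC7A7 and SLC7A5 change order between the NoBAL and the hiHepD8 libraries.

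In SLC1, SLC1A5 rose in NoBAL, EmptyBAL and hiHepD8 against Control. SLC1A5 (ASCT2) exchanges glutamine and other neutral amino acids and is typical of proliferating cells. Its level was 8.72, 9.59 and 9.10 FPKM in Control, then 36.7 and 33.5 in NoBAL, 50.8 and 40.4 in EmptyBAL, then 34.6 in hiHepD4 and 17.4 and 17.2 in hiHepD8. No library after day 0 overlapped Control, and hiHepD8 lay between Control and the rest. The log2 change from Control was 1.83 (SE 0.16, adjusted p 8.9e-05) in NoBAL, 2.19 (SE 0.16, adjusted p 3.6e-05) in EmptyBAL and 0.86 (SE 0.16, adjusted p 0.005) in hiHepD8. hiHepD8 lay below NoBAL by -0.98 (SE 0.17, adjusted p 0.0028) and below EmptyBAL by -1.34 (SE 0.17, adjusted p 0.00098). The call of hiHepD8 against Control was lost without either hiHepD8 library (adjusted p up to 0.057).

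SLC1A4 (ASCT1), which exchanges alanine, serine and cysteine, went in the opposite direction. It was at 2.66, 2.57 and 2.57 FPKM in Control, then 1.29 and 0.994 in NoBAL, 0.736 and 1.68 in EmptyBAL, then 3.44 in hiHepD4 and 6.95 and 6.604 in hiHepD8. Failing livers lay below and day 4 and day 8 livers above the Control range. The change against Control was -0.75 (SE 0.19, adjusted p 0.013) in NoBAL, -0.74 (SE 0.19, adjusted p 0.012) in EmptyBAL and 1.11 (SE 0.19, adjusted p 0.0037) in hiHepD8. hiHepD8 exceeded NoBAL by 1.86 (SE 0.21, adjusted p 0.00037) and EmptyBAL by 1.85 (SE 0.21, adjusted p 0.00055). The fall in NoBAL was not called without NoBAL replicate 2 (adjusted p 0.067), neither fall was called on the TPM scale (-0.59 and -0.26, adjusted p 0.11 and 0.43), and the change in EmptyBAL ranged from -1.05 to -0.43 as libraries were left out.

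SLC1A1 (EAAT3), a sodium-coupled glutamate and aspartate carrier, peaked in hiHepD4. It measured 3.01, 2.94 and 3.33 FPKM in Control, then 10.5 and 8.29 in NoBAL, 0.834 and 4.64 in EmptyBAL, then 19.0 in hiHepD4 and 2.88 and 3.06 in hiHepD8. NoBAL and hiHepD4 lay above Control, EmptyBAL spanned the Control range and hiHepD8 overlapped it. The change was 1.34 (SE 0.40, adjusted p 0.026) in NoBAL against Control, -1.69 (SE 0.44, adjusted p 0.024) in EmptyBAL against NoBAL and -1.39 (SE 0.44, adjusted p 0.034) in hiHepD8 against NoBAL. Each of these was lost without either NoBAL library, with an adjusted p up to 0.13, 0.088 and 0.14 over all leave-one-out fits. NoBAL against Control was also lost without any Control library, and hiHepD8 against NoBAL without any Control or hiHepD8 library. EmptyBAL against NoBAL ranged from -2.50 to -0.88. On the TPM scale EmptyBAL against NoBAL (adjusted p 0.087) and hiHepD8 against NoBAL (0.096) were lost, the latter on upper-quartile scaling as well (0.069). SLC1A2, the glutamate carrier GLT1, did not pass the filter on low values.

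**Figure D4:**
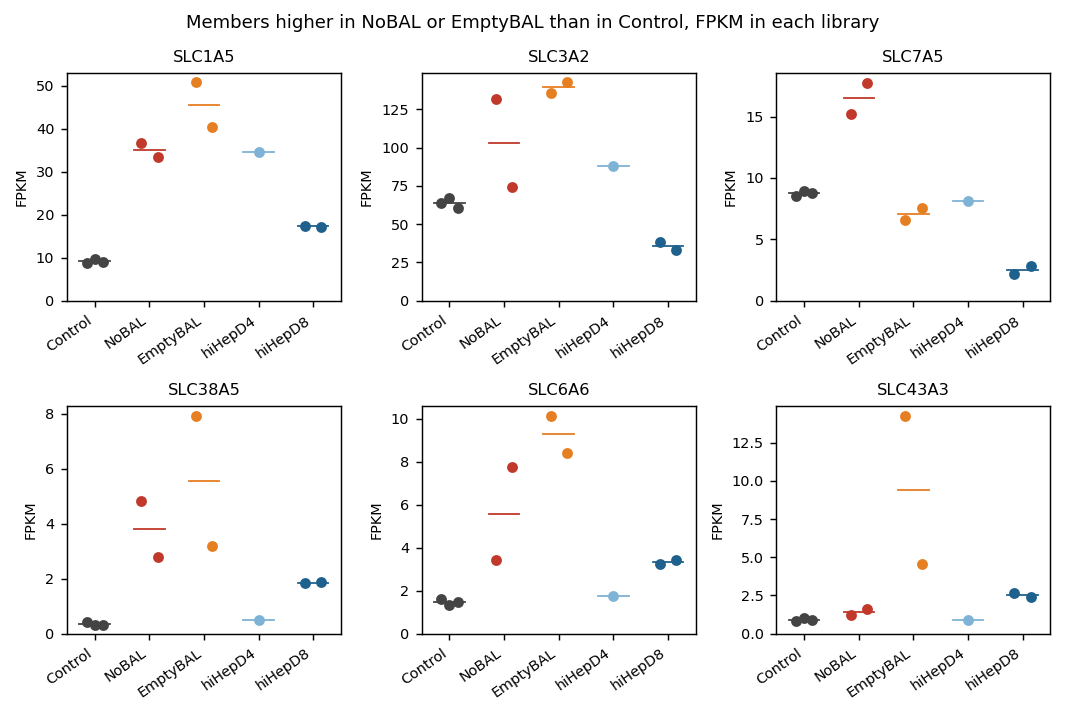
FPKM in each library (points) and the group mean (lines) for 6 members that were higher in NoBAL or EmptyBAL than in Control. SLC1A5 stays above Control in every later group (17.2 to 50.8 FPKM against 8.72 to 9.59), SLC3A2 and SLC7A5 end below Control in hiHepD8, and SLC43A3 is highest in EmptyBAL 1 at 14.2 FPKM.

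Among the 6 tested members of SLC6, which carry osmolytes and transmitters, 2 fell and 1 rose in NoBAL and 4 fell and 2 rose in EmptyBAL, against Control (all genes: 24.2% lower and 25.2% higher in NoBAL, 29.3% and 24.4% in EmptyBAL). SLC6A12, the betaine and GABA transporter, had 89.9, 91.2 and 90.7 FPKM in Control, then 19.4 and 3.35 in NoBAL, 2.01 and 6.44 in EmptyBAL, then 37.6 in hiHepD4 and 55.9 and 53.4 in hiHepD8. No later library reached Control, and the day 4 and day 8 libraries lay above both failing groups. Relative to Control the change was -3.28 (SE 0.61, adjusted p 0.0033) in NoBAL and -4.27 (SE 0.61, adjusted p 0.00087) in EmptyBAL. hiHepD8 was higher than NoBAL by 2.56 (SE 0.67, adjusted p 0.016) and than EmptyBAL by 3.56 (SE 0.67, adjusted p 0.005), and its difference from Control was -0.72 (SE 0.61, adjusted p 0.41). hiHepD8 against NoBAL was lost without NoBAL replicate 2 or either hiHepD8 library (adjusted p up to 0.074; range 1.45 to 3.68), and NoBAL against Control was -2.17 without NoBAL replicate 2 and still called.

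SLC6A11, a GABA transporter best known from brain, stayed low. It was at 63.0, 63.3 and 63.4 FPKM in Control, then 15.0 and 23.1 in NoBAL, 1.0003 and 5.70 in EmptyBAL, then 13.1 in hiHepD4 and 12.1 and 11.08 in hiHepD8. The day 8 libraries lay below NoBAL and above EmptyBAL. Set against Control, the change was -1.71 (SE 0.45, adjusted p 0.015) in NoBAL, -4.13 (SE 0.45, adjusted p 0.00023) in EmptyBAL and -2.35 (SE 0.45, adjusted p 0.0059) in hiHepD8. hiHepD8 exceeded EmptyBAL by 1.78 (SE 0.49, adjusted p 0.023), and EmptyBAL lay below NoBAL by -2.42 (SE 0.49, adjusted p 0.011). The NoBAL call against Control was lost without NoBAL replicate 1 (adjusted p 0.098) and on the TPM scale (0.087), and the hiHepD8 call against Control without hiHepD8 replicate 2 (0.051). hiHepD8 against EmptyBAL was lost without either hiHepD8 library (up to 0.11; range 0.91 to 2.65) and on the TPM scale (0.064), and EmptyBAL against NoBAL without NoBAL replicate 2 (0.053; range -3.30 to -1.55).

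SLC6A8, the creatine transporter, separated the failing groups. It had 47.9, 52.7 and 47.5 FPKM in Control, then 56.6 and 81.8 in NoBAL, 12.8 and 24.4 in EmptyBAL, then 54.6 in hiHepD4 and 26.7 and 28.6 in hiHepD8. NoBAL and hiHepD4 lay above Control, and EmptyBAL and hiHepD8 below it. The change was -1.42 (SE 0.28, adjusted p 0.0037) in EmptyBAL against Control, -1.88 (SE 0.31, adjusted p 0.0057) in EmptyBAL against NoBAL and -1.27 (SE 0.31, adjusted p 0.011) in hiHepD8 against NoBAL. It was 0.46 (SE 0.28, adjusted p 0.21) in NoBAL and -0.81 (SE 0.28, adjusted p 0.058) in hiHepD8 against Control. hiHepD8 against NoBAL was lost without NoBAL replicate 2 or either hiHepD8 library (adjusted p up to 0.068) and on the TPM scale (0.075). EmptyBAL against Control was also lost on the TPM scale, where its change was -0.64 (adjusted p 0.18).

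SLC6A6, the taurine transporter, rose in failing liver. It was at 1.62, 1.32 and 1.46 FPKM in Control, then 3.40 and 7.76 in NoBAL, 10.2 and 8.42 in EmptyBAL, then 1.75 in hiHepD4 and 3.26 and 3.41 in hiHepD8. All later libraries were above the Control range, and hiHepD4 was nearest to it. The log2 change from Control was 1.33 (SE 0.27, adjusted p 0.0046) in NoBAL, 2.06 (SE 0.27, adjusted p 0.00054) in EmptyBAL and 0.81 (SE 0.27, adjusted p 0.051) in hiHepD8. hiHepD8 lay below EmptyBAL by -1.24 (SE 0.29, adjusted p 0.012), a call lost without either hiHepD8 library (up to 0.071). Without NoBAL replicate 2 the change in NoBAL was 0.84 and still called.

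SLC6A20, a carrier of proline and other imino acids, was low only in EmptyBAL among the groups. It measured 5.39, 3.61 and 4.10 FPKM in Control, then 3.17 and 3.85 in NoBAL, 0.171 and 1.39 in EmptyBAL, then 5.56 in hiHepD4 and 4.69 and 5.28 in hiHepD8. EmptyBAL overlapped no other group. The change was -1.67 (SE 0.29, adjusted p 0.0023) in EmptyBAL against Control and -1.43 (SE 0.32, adjusted p 0.015) against NoBAL, and hiHepD8 exceeded EmptyBAL by 1.84 (SE 0.32, adjusted p 0.0036). EmptyBAL against NoBAL was lost without NoBAL replicate 2 (adjusted p 0.065; range -1.94 to -0.91) and on the TPM scale (0.066). SLC6A9, a glycine transporter at 0.390 to 6.002 FPKM, was lower in hiHepD8 than in EmptyBAL by -1.60 (SE 0.31, adjusted p 0.0056), with a range of -2.16 to -1.04 as libraries were left out.

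Among the SLC43 carriers, SLC43A2 (LAT4), which lets large neutral amino acids leave the cell, was lowest on day 8. It was at 34.8, 37.0 and 34.7 FPKM in Control, then 61.0 and 39.3 in NoBAL, 29.0 and 17.4 in EmptyBAL, then 61.1 in hiHepD4 and 13.0 and 13.3 in hiHepD8. The day 8 libraries were below all others. The change in hiHepD8 was -1.37 (SE 0.26, adjusted p 0.0057) against Control and -1.82 (SE 0.28, adjusted p 0.0016) against NoBAL. EmptyBAL lay below NoBAL by -1.09 (SE 0.28, adjusted p 0.024). Without NoBAL replicate 1 the last of these was not called (0.08), nor on the TPM scale (-0.65, 0.072), and without hiHepD8 replicate 1 the change against Control was not (0.054).

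SLC43A3, which carries purine nucleobases in human cells, was at 0.849, 0.990 and 0.889 FPKM in Control. It was at 1.18 and 1.58 FPKM in NoBAL, 14.2 and 4.59 in EmptyBAL, then 0.902 in hiHepD4 and 2.63 and 2.38 in hiHepD8. EmptyBAL stood above every other group, and its libraries differed widely. The change in EmptyBAL was 2.27 (SE 0.36, adjusted p 0.0014) against Control and 1.96 (SE 0.39, adjusted p 0.011) against NoBAL, the latter between 1.24 and 2.68 as libraries were left out. hiHepD8 lay below EmptyBAL by -1.40 (SE 0.39, adjusted p 0.025), a call lost without either hiHepD8 library (up to 0.11; range -2.12 to -0.67).

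SLC43A1 (LAT3), a further carrier of large neutral amino acids, followed the course of SLC3A1 at a low level. It ranged from 1.38 to 1.90 FPKM in Control and from 0 to 0.242 FPKM in NoBAL, EmptyBAL and hiHepD4, and was 2.74 and 2.65 in hiHepD8. The change against Control was -1.34 (SE 0.13, adjusted p 0.00014) in NoBAL and -1.18 (SE 0.13, adjusted p 0.00022) in EmptyBAL. hiHepD8 exceeded NoBAL by 1.83 (SE 0.14, adjusted p 8e-05), EmptyBAL by 1.67 (SE 0.14, adjusted p 0.00019) and Control by 0.49 (SE 0.13, adjusted p 0.022). The last of these was lost without Control replicate 1 or 3 or either hiHepD8 library (up to 0.14).

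The remaining called members were low. SLC36A4, an amino acid carrier of the SLC36 family, was 3.42 and 6.18 FPKM in NoBAL against 1.30 to 1.59 in Control, a change of 1.23 (SE 0.21, adjusted p 0.002). SLC36A1, which moves small amino acids with protons and sits partly on lysosomes, and SLC38A6 were called only in EmptyBAL against Control, at 0.78 (SE 0.25, adjusted p 0.029) and 0.67 (SE 0.21, adjusted p 0.027). The call of SLC36A1 was lost without Control replicate 2 or 3 or either EmptyBAL library (adjusted p up to 0.09), and that of SLC38A6 without any Control library or EmptyBAL replicate 1 (up to 0.12).

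The single hiHepD4 library was not tested. In it, 7 of the 30 members differed from the Control mean by at least 2-fold in FPKM + 1, beside 19.4% of all genes. A member at a low level, such as SLC6A9 (0.390 FPKM against a Control mean of 1.64), can fall outside this count. SLC1A1 (2.29) and SLC1A5 (1.81) were higher. SLC3A1 (-2.89), SLC6A11 (-2.18), SLC7A7 (-1.30), SLC6A12 (-1.25) and SLC43A1 (-1.09) were lower. Against the hiHepD8 mean, 10 members differed at least 2-fold in FPKM + 1, beside 23.4% of all genes. SLC1A1 (2.34), SLC43A2 (2.13), SLC7A9 (1.71), SLC7A5 (1.38), SLC3A2 (1.28) and SLC7A1 (1.07) were higher on day 4, and SLC3A1 (-2.98), SLC7A2 (-1.63), SLC43A1 (-1.57) and SLC7A7 (-1.57) were lower. The day 4 library thus had SLC38A3, SLC38A4 and SLC7A2 nearer to Control than the failing groups had, while SLC3A1 and SLC43A1 were at the failing level.

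**Figure D5:**
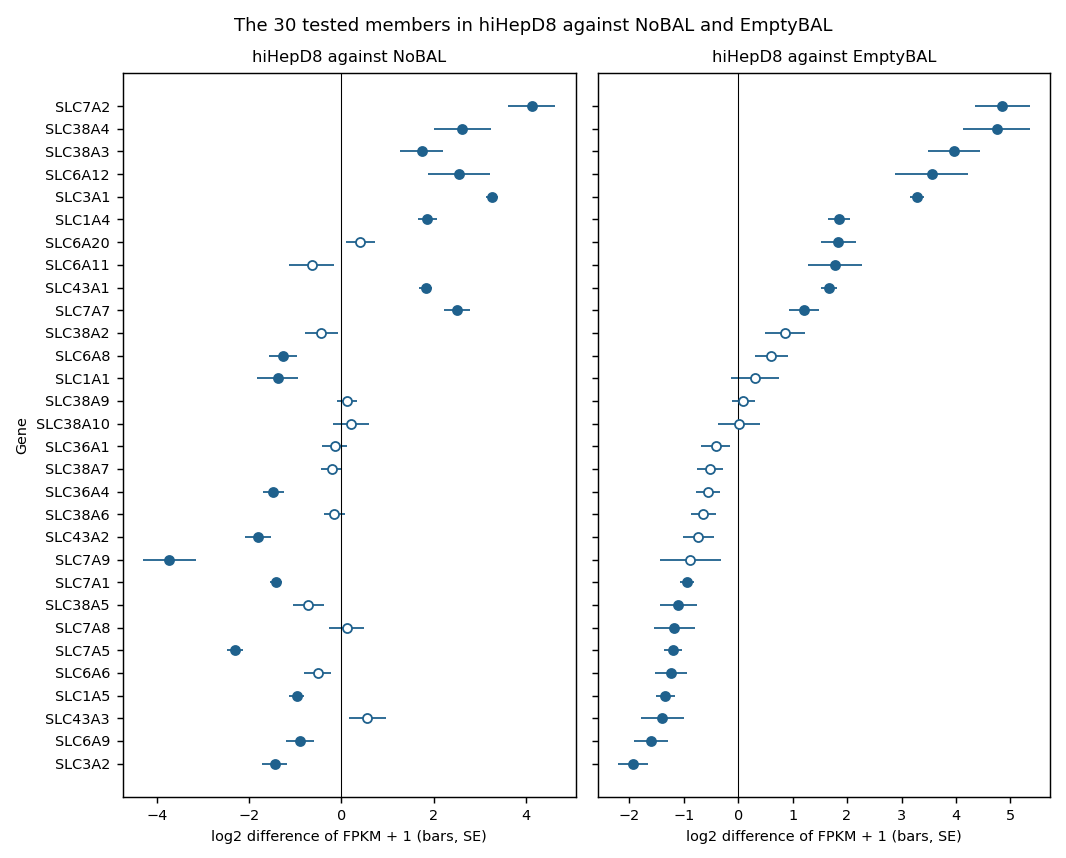
Log2 differences of FPKM + 1 with SE bars for the 30 tested members in hiHepD8 against NoBAL (left) and EmptyBAL (right), which share the hiHepD8 libraries, with filled points for adjusted p under 0.05. SLC7A2 is at the top of both, at 4.13 and 4.85, SLC7A9 lies lowest on the left at -3.74 and SLC3A2 lowest on the right at -1.93.

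Position was not used to choose the members. For each pair of tested members within 500 kb of each other, a group or comparison in which the neighbours differed is given. It was picked among 5 groups and 6 comparisons, so it is a description and no test of neighbours. All coordinates are from RefSeq for Sscrofa11.1. SLC38A2 (chromosome 5, 77113491 to 77127715) and SLC38A4 (77411610 to 77489542) lie 283.9 kb apart, and on day 8 SLC38A2 was at 36.3 and 37.1 FPKM while SLC38A4 was at 105 and 104. SLC38A4 was also the higher of these in Control, and both were called lower in EmptyBAL against Control (-2.21 and -5.23). SLC43A1 (chromosome 2, 13407046 to 13436270) and SLC43A3 (13490913 to 13514518) lie 54.6 kb apart, and in EmptyBAL against Control SLC43A1 was lower and SLC43A3 higher. SLC7A8 (chromosome 7, 75854700 to 75921931) and SLC7A7 (76195774 to 76235406) lie 273.8 kb apart, and in EmptyBAL against Control SLC7A8 was higher and SLC7A7 lower. The fall of SLC7A7 was not called on the TPM scale or on upper-quartile scaling. SLC6A12 (chromosome 5, 67550285 to 67573858) was among the abundant members, and SLC6A13, which starts 0.3 kb beyond it at 67574149, did not pass the filter.

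Tested but called in no comparison were SLC38A10, SLC38A7, a lysosomal glutamine carrier, and SLC38A9, the lysosomal arginine sensor. SLC38A10 was abundant, at 59.8 to 61.7 FPKM in Control and 31.1 to 76.5 FPKM over all libraries, and SLC38A9 lay between 0.839 and 1.72 FPKM. The 21 members that did not pass the filter reached at most 1.08 FPKM in any library. They included SLC1A2, SLC1A3, SLC1A6, SLC1A7, SLC6A2, SLC6A3, SLC6A4, SLC6A7, SLC6A13, SLC6A14, SLC6A15, SLC6A17, SLC7A3, SLC7A4, SLC7A10, SLC7A11, SLC36A2, SLC36A3, SLC38A8 and SLC38A11. SLC6A5, SLC6A18, SLC6A19, SLC7A13 and SLC7A14 were listed at 0 in all 10 libraries. By family, 3 of 7 SLC1, 2 of 2 SLC3, 6 of 18 SLC6, 6 of 12 SLC7, 2 of 4 SLC36, 8 of 10 SLC38 and 3 of 3 SLC43 members passed.

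Other carriers of amino acids and peptides were followed as a list of 14 genes, of which 8 were tested. In NoBAL against Control 0 were higher and 4 lower, with a median of -0.50 beside 0.04 for all genes. In hiHepD8 against NoBAL 4 were higher and 0 lower, with a median of 0.59 beside -0.03. The other comparisons were mixed, with 2 higher and 4 lower in EmptyBAL and 1 and 2 in hiHepD8 against Control, 2 and 2 in EmptyBAL against NoBAL, and 2 and 3 in hiHepD8 against EmptyBAL. The shares of all genes called in each direction are those given with the members' counts. SLC15A2, a proton-coupled peptide transporter, was at 12.8, 14.3 and 14.0 FPKM in Control, then 0.513 and 0.227 in NoBAL, 0.649 and 1.07 in EmptyBAL, then 2.38 in hiHepD4 and 3.80 and 4.61 in hiHepD8. Its change was -3.43 (SE 0.17, adjusted p 8e-06) in NoBAL and -1.50 (SE 0.17, adjusted p 0.00052) in hiHepD8 against Control. SLC16A10, the aromatic amino acid carrier TAT1, was at 5.89, 5.19 and 6.04 FPKM in Control, then 1.90 and 2.75 in NoBAL, 0.0848 and 0.652 in EmptyBAL, then 5.66 in hiHepD4 and 8.07 and 8.10 in hiHepD8. It was higher in hiHepD8 than in EmptyBAL by 2.76 (SE 0.23, adjusted p 0.00018).

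Genes that sense amino acids and pass the signal to mTORC1, the growth-regulating kinase complex on lysosomes, numbered 30 tested of 35. In NoBAL against Control 8 were higher and 7 lower, in EmptyBAL against Control 3 and 7, and in hiHepD8 against Control 6 and 7. Of all genes, 25.2% were higher and 24.2% lower in NoBAL, 24.4% and 29.3% in EmptyBAL, and 15.1% and 17.1% in hiHepD8, so the count in NoBAL is at the background. The median was 0.16, -0.02 and -0.29 in the same order, beside 0.04, -0.03 and -0.02 for all genes. In EmptyBAL against NoBAL 3 were higher and 5 lower (all genes: 12.6% and 21.4%). In hiHepD8 against NoBAL 8 were higher and 12 lower (all genes: 22.5% and 24.8%), and in hiHepD8 against EmptyBAL 9 and 8 (22.6% and 17.6%). The leucine sensor SESN2 was at 5.85, 5.51 and 5.91 FPKM in Control, then 8.44 and 8.74 in NoBAL, 2.80 and 10.5 in EmptyBAL, then 9.99 in hiHepD4 and 58.1 and 55.1 in hiHepD8. Its change was 3.09 (SE 0.39, adjusted p 0.00095) in hiHepD8 against Control. Its relative SESN1 rose from between 6.56 and 7.72 FPKM in Control to 29.97 and 30.6 in hiHepD8 (change 1.92, SE 0.25, adjusted p 0.0011). The arginine sensor CASTOR1 went from between 3.56 and 4.45 FPKM to 19.7 and 22.5 (change 2.10, SE 0.25, adjusted p 0.00073). KPTN, a subunit of KICSTOR, a complex that also restrains mTORC1, went the other way, from between 4.83 and 8.49 FPKM in Control to 1.52 and 2.74 (change -1.26, SE 0.27, adjusted p 0.0091).

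Genes of the amino acid response through ATF4, the transcription factor translated when amino acids are short, numbered 19, all tested. In NoBAL against Control 3 were higher and 7 lower, in EmptyBAL against Control 1 and 6, and in hiHepD8 against Control 5 and 7. The shares of all genes were 25.2% higher and 24.2% lower in NoBAL, 24.4% and 29.3% in EmptyBAL, and 15.1% and 17.1% in hiHepD8. The list's median was -0.27, -0.19 and -0.26 in the same order, beside 0.04, -0.03 and -0.02. In hiHepD8 against NoBAL 7 were higher and 4 lower (all genes: 22.5% and 24.8%), and in hiHepD8 against EmptyBAL 6 and 3 (22.6% and 17.6%). In EmptyBAL against NoBAL 0 were higher and 2 lower (12.6% and 21.4%). ATF3, a stress-induced factor, was at 202, 200.2 and 199 FPKM in Control, then 14.7 and 10.2 in NoBAL, 10.3 and 7.09 in EmptyBAL, then 37.6 in hiHepD4 and 1.07 and 0.875 in hiHepD8. The high level was thus that of the Control libraries, and the change was -3.92 (SE 0.21, adjusted p 1.2e-05) in NoBAL and -6.67 (SE 0.21, adjusted p 2.9e-06) in hiHepD8. Other genes of the list differed in direction in hiHepD8 against Control. SESN2, also on this list, rose by 3.09 (SE 0.39, adjusted p 0.00095) and DDIT4 by 2.28 (SE 0.62, adjusted p 0.027). PHGDH changed by -3.03 (SE 0.91, adjusted p 0.038). DDIT3, another stress factor, was lower in NoBAL by -2.42 (SE 0.31, adjusted p 0.00058). CTH, which makes cysteine from cystathionine, was at 241 to 243 FPKM in Control, then 68.1 and 39.9 in NoBAL, 3.77 and 40.4 in EmptyBAL, then 146 in hiHepD4 and 690 and 675 in hiHepD8. It was higher in hiHepD8 than in NoBAL by 3.69 (SE 0.83, adjusted p 0.0086).

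The libraries also differed in genes that mark cell types, and in bulk tissue fewer cells of a type and less RNA per cell cannot be told apart. The labels give hepatocyte as the cell type and liver as the source, and markers of other liver cells were present in every group. The 8 hepatocyte markers summed to 81500 to 84100 FPKM in Control, 14600 to 15300 in NoBAL, 3600 to 6800 in EmptyBAL, 23700 in hiHepD4 and 21400 to 21500 in hiHepD8. Against Control, 5 of the 8 were called lower in NoBAL, 8 in EmptyBAL and 3 in hiHepD8, with 0 higher. Most of the Control sum was ALB (52275 to 55098 FPKM), and single markers differed in their course. In hiHepD8, CPS1 (564 and 560 FPKM against 284 to 311 in Control) and HNF4A (118 and 119 against 105 to 112) were above Control. ALB, TTR, APOA1, APOB, SERPINA1 and TF were below it. SLC38A3 and SLC7A2 were above Control in hiHepD8.

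The 7 dividing cell markers found summed to 10.5 to 11.4 FPKM in Control, 292 to 457 in NoBAL, 222 to 240 in EmptyBAL, 161 in hiHepD4 and 8.09 to 8.48 in hiHepD8. All 7 were called higher in NoBAL and in EmptyBAL than in Control, and 0 higher and 1 lower in hiHepD8. SLC1A5 was above its Control range in hiHepD8 while this sum was below that of Control. Neutrophil markers (5 of 7 found) summed to 0.361 to 1.31 FPKM in Control, with 2 at 0 in every Control library, 26.3 to 234 in NoBAL, 101 to 626 in EmptyBAL, 66.1 in hiHepD4 and 0.768 to 1.02 in hiHepD8. SLC43A3, SLC38A5, SLC6A6 and SLC7A8 had their highest group means in EmptyBAL. Of these, SLC38A5 (limma, adjusted p 0.41) and SLC6A6 (0.09) were not called in EmptyBAL against NoBAL. In EmptyBAL, cholangiocyte markers (7 of 8 found) summed to 308 to 627 FPKM against 43 to 46.8 in Control. T and NK cell markers (7 of 8 found) summed to 40.8 to 68.6 in EmptyBAL against 18.2 to 21.5 in Control. Most of these EmptyBAL sums was SPP1 (527 and 183 FPKM) and NKG7 (53.4 and 25.9 FPKM), respectively. In EmptyBAL against Control, 4 of the 7 tested cholangiocyte markers were called higher and 1 lower, and 2 of the 6 tested T and NK cell markers higher and 1 lower. Macrophage markers summed to 705 to 895 in EmptyBAL and 192 to 422 in NoBAL against 929 to 1030 in Control. Most of the Control sum was CD14 (680 to 752 FPKM), which was at 90.8 and 167 FPKM in EmptyBAL. In EmptyBAL against Control, 5 of the 8 macrophage markers were called higher and 1 lower (all genes: 24.4% and 29.3%). In NoBAL against Control, 0 were higher and 4 lower (all genes: 25.2% and 24.2%). Stellate markers summed to 329 to 363 in Control and 630 to 879 in NoBAL. The sums were 548 to 814 in EmptyBAL, 152 in hiHepD4 and 537 to 542 in hiHepD8. Against Control, 3 of the 8 were called higher and 0 lower in NoBAL, and likewise in EmptyBAL. In hiHepD8, 4 were higher and 1 lower (all genes: 15.1% and 17.1%). COL1A1 was at 178 and 180 FPKM in hiHepD8 against 29.6 to 31.3 in Control, and ACTA2 at 166 and 169 against 201 to 238. Endothelial markers (7 of 8 found) summed to 252 to 281 in Control and 76.7 to 115 in NoBAL. Their sums were 149 to 186 in EmptyBAL, 52.8 in hiHepD4 and 154 to 155 in hiHepD8. Most of the Control sum was CLEC4G (203 to 233 FPKM), which was at 46.3 and 46.4 FPKM in hiHepD8. Against Control, 1 of the 7 endothelial markers was called higher and 1 lower in NoBAL. In EmptyBAL, and likewise in hiHepD8, 2 were higher and 1 lower. Red cell markers (5 of 6 found) varied widely within NoBAL (27.3 to 183) and within EmptyBAL (4.49 to 155). They summed to 156 to 182 in Control, 298 in hiHepD4 and 105 to 113 in hiHepD8. The part of these cells in the levels of the members was not tested.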

How the data were processed

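The authors deposited 1 table of FPKM per gene for 10 libraries. Its header does not name the unit, which was taken from the Cufflinks-style columns and the values. The submitters' processing notes list, with no role or order, HISAT2 2.104, Cufflinks 2.2.15, HTSeq, a pig build (Sscrofa11.1) and a mouse build (mm10). Per the labels' protocols, total RNA extracted with Trizol was made into paired-end TruSeq libraries. Strandedness is not given in the sources used. Low values gave no common ratio between libraries (38 of 1839 low genes in Control replicates 1 and 3 and 37 of 2233 in hiHepD8, within 0.1%), so whole fragments could not be recovered and depth is unknown. FPKM are relative to the fragments of a library.

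Members were rows whose symbol in the deposited table is one of the 7 families, 56 rows for 56 symbols. All had coordinates in RefSeq for Sscrofa11.1, matched by symbol or identifier. Values were tested as log2(FPKM + 1) for the 12180 genes that 2 or more libraries had at 1 FPKM or above, in 1 limma model (version 3.58.1, R 4.3.3; trended moderated statistics) of all 10 libraries with a mean for each of 5 groups, with 5 residual and 2.7 prior degrees of freedom. Tests were two-sided with Benjamini-Hochberg adjustment over all genes of a comparison, called under 0.05. hiHepD4 is in the fit but, as a single library, was not tested. Its differences were read against a fold of 2 in FPKM + 1. The procedure was tested on simulated data. Values in every library were given for members called in at least 1 comparison with a group mean of at least 5 FPKM, and from each list up to 4 called genes with the largest change were eligible to be named. Members, lists and tests were chosen with earlier results of these data known. Alternatives were TPM and upper-quartile scaling, other filters (5 FPKM, none), a pseudocount of 0.1, no trend, a replicate block, Control and hiHepD8 each averaged to a single library, and leaving out each replicate. Tables were made in Python 3.11.15 with numpy 2.4.6 and pandas 2.3.3, and plots with matplotlib 3.10.9. SLC7A6 was not analysed here. 1 member is not reported here.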

Additional observations from a re-analysis of the deposited data

How the results depend on the processing

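The main counts of called members were 16, 21 and 11 in NoBAL, EmptyBAL and hiHepD8 against Control, 15 in EmptyBAL against NoBAL, and 18 and 19 in hiHepD8 against NoBAL and EmptyBAL. With Control and hiHepD8 each averaged to a single library they were 2, 3, 0, 0, 2 and 1 (limma, unadjusted p under 0.05 for 10, 14, 3, 12, 11 and 13 members), since only the spread of 4 libraries was left. With a replicate block, hiHepD8 against Control gave 6, and the other counts, 13, 17, 10, 16 and 17, moved by at most 1.5 times. The numbers do not pair the samples: deviations of same-numbered libraries correlated at -0.089 to 0.137. TPM gave 9 in EmptyBAL against NoBAL. TPM moved the median of all genes by 0.289, 0.673, 0.479, 0.357, 0.173 and -0.203 in the order above, and upper-quartile scaling by -0.028 to 0.198. Leaving out a library, hiHepD8 against Control ranged from 4 to 16. The cause of these shifts was not tested. Of 100 member calls, 61 were kept in all 9 leave-one-out fits, and 57 in every setting other than averaging. Calls lost numbered 23 with TPM, 8 with upper-quartile scaling, 19 without a filter, 5 with a pseudocount of 0.1, 21 with the block, and 0 without the trend (19, 7, 19, 5 and 20 of these, in that order, were also lost in a leave-one-out fit); a filter of 5 FPKM left 20 members and lost 0 of their calls. None reversed. Depth is unknown, so counting error at low FPKM could not be given.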

Other observations

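SLC38A1, a system A carrier, has no symbol in the deposited table and was matched through the reference table by identifier, so it was not among the 56 members. It was listed at 1.80, 1.90 and 1.38 FPKM in Control, then 0.847 and 0.905 in NoBAL, 0.0374 and 0.372 in EmptyBAL, then 3.39 in hiHepD4 and 1.26 and 1.01 in hiHepD8.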
